A study of Mus musculus with 3 samples.

Results

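Potassium channel genes were taken as the genes whose mouse symbol begins with Kcn, then further letters and a number. This rule found 95 of the 22698 Ensembl gene records measured by RNA-seq in melan-a cells, and they carry 93 distinct symbols, because *Kcnb2* and *Kcnh8* each have 2 records. All 95 are annotated as protein-coding. The genes named Kctd, which encode tetramerization-domain proteins and no channel, were not taken. The RNA came from 3 biological replicates, labelled 1, 3 and 4, of one line under one culture condition, so no groups of samples could be compared. The labels describe melan-a as C57BL/6J melanocytes from Ink4a-ARF-/- mice, and every replicate was grown with 10% fetal bovine serum, 200 nM 12-O-tetradecanoylphorbol 13-acetate, an activator of protein kinase C, and 200 pM cholera toxin, which raises cyclic AMP. The values therefore describe melanocytes of a single line in the presence of both agents.

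Potassium channels let potassium ions leave or enter a cell along their electrochemical gradient and thereby set its resting membrane potential. Voltage-gated channels (Kv) open when the membrane depolarizes, inward rectifiers (Kir) pass current mainly into the cell, K2P channels give a background leak, and a further group opens when calcium rises inside the cell. Auxiliary subunits form no pore of their own and alter the gating or trafficking of the pore-forming subunits. In the pigment system, Kir4.1 (*Kcnj10*) of the melanocyte-like intermediate cells of the cochlea is known for its part in the endocochlear potential, and mutations of the zebrafish ortholog of *Kcnj13* (Kir7.1) are known to change the stripe pattern.

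Most potassium channel genes were not measurably transcribed in melan-a cells, and a few members held most of the signal. Of the 95 records, 45 (47.4%) were listed at 0 in all 3 replicates, against 31.4% of all genes, and 61 (64.2%) stayed under 3 estimated reads in every replicate, against 36.7% of the 22324 genes with an annotated exon length. A listed 0 was counted here as 0 reads, for members and all genes alike. In long records it can stand for 3 reads or more. For *Kcnh7*, 3 reads would give 0.0037, 0.0042 and 0.0030 FPKM in replicates 1, 3 and 4. Values under 0.005 FPKM are listed as 0. A mean of at least 1 FPKM (reads normalised to gene length and library size, with 1 taken here as the level called expressed) was reached by 8 members (8.42%), against 45.1% of all genes. Only 3 members (3.16%) had a mean of at least 10 FPKM, against 23.6% of all genes. The median of the members' means was 0.0033 FPKM, compared with 0.28 FPKM over all genes. In RNA from whole cultures, a low level in every cell and a higher level in few cells cannot be told apart. No test was made of these shares.

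**Figure D1:**
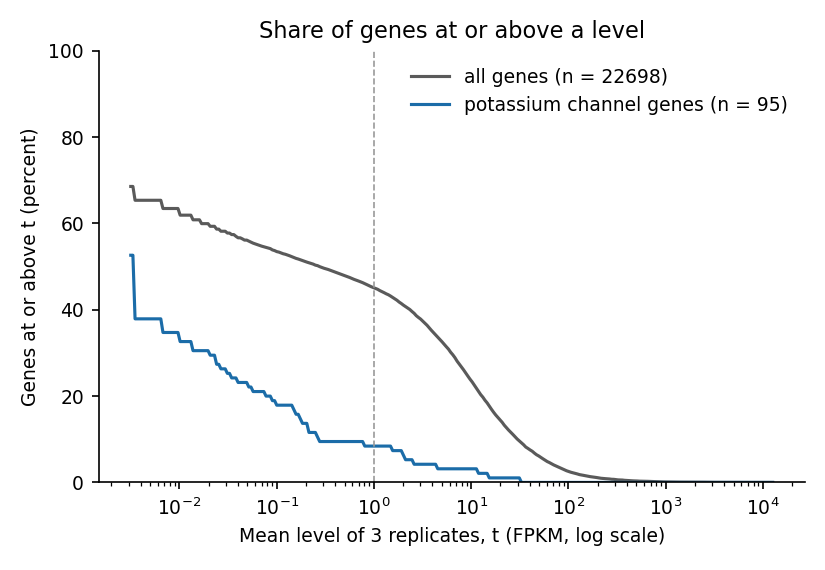
Percentage of genes (vertical axis) whose mean over 3 replicates is at or above the level t in FPKM (horizontal axis, log scale), for all 22698 genes and for the 95 potassium channel genes, with a dashed line at 1 FPKM. At 1 FPKM the curve of the potassium channel genes stands at 8.42% and that of all genes at 45.1%.

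Promoter windows are given for 2 pairs of genes that the results below turn on. *Kcnk5* had the highest level of the family, while *Kcnk16*, the nearest gene of the same class on chromosome 14, was listed at 0. *Kcnmb4* and *Kcnma1* encode an auxiliary subunit and the pore-forming subunit of the same channel, and only the first was expressed. The windows hold 250 bases before and 50 after the 5'-most annotated start in RefSeq (GRCm38.p6), are written 5' to 3' on the strand of the gene, and have their CG dinucleotides in capitals.
*Kcnk5*, chr14:20181733-20182032, minus strand: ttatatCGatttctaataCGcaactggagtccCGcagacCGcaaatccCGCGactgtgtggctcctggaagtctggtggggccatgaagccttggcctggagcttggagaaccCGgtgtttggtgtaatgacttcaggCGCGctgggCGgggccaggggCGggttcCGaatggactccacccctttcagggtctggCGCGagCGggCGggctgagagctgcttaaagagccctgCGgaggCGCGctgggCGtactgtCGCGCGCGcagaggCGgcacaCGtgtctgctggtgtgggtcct
*Kcnk16*, chr14:20269220-20269519, minus strand: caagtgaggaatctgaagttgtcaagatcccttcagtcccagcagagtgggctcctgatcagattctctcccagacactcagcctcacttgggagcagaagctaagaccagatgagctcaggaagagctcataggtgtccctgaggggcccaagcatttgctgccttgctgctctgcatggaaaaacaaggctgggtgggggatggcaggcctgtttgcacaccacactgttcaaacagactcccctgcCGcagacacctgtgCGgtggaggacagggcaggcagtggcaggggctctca
*Kcnmb4*, chr10:116473474-116473773, minus strand: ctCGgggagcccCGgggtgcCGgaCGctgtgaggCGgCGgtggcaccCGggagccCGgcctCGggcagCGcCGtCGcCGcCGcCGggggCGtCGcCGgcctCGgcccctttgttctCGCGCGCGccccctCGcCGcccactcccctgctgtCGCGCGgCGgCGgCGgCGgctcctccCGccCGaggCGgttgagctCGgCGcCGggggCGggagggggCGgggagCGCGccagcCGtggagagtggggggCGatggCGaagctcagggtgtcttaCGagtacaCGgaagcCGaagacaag
*Kcnma1*, chr14:24004156-24004455, minus strand: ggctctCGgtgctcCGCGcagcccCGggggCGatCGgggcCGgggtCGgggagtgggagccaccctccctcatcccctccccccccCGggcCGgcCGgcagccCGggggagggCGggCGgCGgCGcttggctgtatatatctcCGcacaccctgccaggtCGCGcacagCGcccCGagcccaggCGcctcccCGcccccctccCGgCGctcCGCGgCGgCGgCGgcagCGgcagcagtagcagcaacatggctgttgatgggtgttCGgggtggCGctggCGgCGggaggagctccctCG
The window of *Kcnk5* held 26 CG dinucleotides and that of *Kcnk16* held 2. The windows of the second pair were both high in CG, with 48 in *Kcnmb4* and 36 in *Kcnma1*. It was not checked for each gene whether its window lies at the start of the measured Ensembl record. For *Kcnma1* it probably does not. That record spans chr14:24117983-24622526 in mm9, on the minus strand. The shift between mm9 and GRCm38 at *Kcnk5* and *Kcnk16*, on the same chromosome, would place the *Kcnma1* window upstream of this record. Its CG count may therefore not describe the start of the record listed at 0. By symbol alone, a window was found in the RefSeq table for 68 of the 93 symbols. Among these, the median was 16.5 CG dinucleotides for 6 expressed members (range 6 to 48) and 10 for 33 members listed at 0 (range 0 to 49), so the ranges overlapped almost completely. Over all genes of the files with a window, the medians were 22 for 7342 genes of at least 1 FPKM and 3 for 4274 genes listed at 0. The E-box CACGTG, a sequence that MITF can bind, was in the windows of *Kcnk5* and *Kcnn4*, in 2 of the 6 expressed members and in 0 of the 33 listed at 0. Over the 68 members with a window it was in 5 (7.35%). It was in 7.24% of all windows, in 11.1% of those of all genes of at least 1 FPKM and in 4.66% of those of all genes listed at 0. The E-box CATGTG, also searched, was in 0 of the 6, in 1 of the 33 and in 2 of the 68 (2.94%). Its shares were 14.1% of all windows, 7.46% for genes of at least 1 FPKM and 17.5% for genes listed at 0. The TFAP2 motif GCCNNNGGC was in 2 of the 6, *Kcnk5* and *Kcnmb4*, and in 8 of the 33, against 16.5% of all windows, 26.3% for genes of at least 1 FPKM and 9.62% for genes listed at 0. All of these motifs were searched on both strands, and a match is only a description of the window. *Kcnd1*, another expressed member, had no window in the table.

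The highest member was *Kcnk5* (ENSMUSG00000023243), which encodes TASK-2, a K2P leak channel that opens at alkaline external pH. It lies on the minus strand of mm9 at chr14:20959280-21001004. The 3 values were 33.44, 34.42 and 30.27 FPKM for replicates 1, 3 and 4, a mean of 32.7 ± 2.17 FPKM (SD, n = 3), at rank 2090 of all genes. *Kcnk5* has 1 annotated transcript, and its values came to 6041, 5431 and 6731 estimated reads in replicates 1, 3 and 4. The 3 replicates lay close together, and all stood above every value of any other member. The gene *Kcnk16*, which encodes the TALK-1 channel, lies 80974 bp away at chr14:21081978-21088384 on the same strand and was at 0 in every replicate.

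*Kcnk2*, which encodes TREK-1, a K2P channel opened by membrane stretch and fatty acids, was the other expressed leak channel (chr1:191031816-191167711, minus strand). It had 4.27, 4.63 and 4.67 FPKM in replicates 1, 3 and 4, a mean of 4.52 ± 0.22 FPKM (SD, n = 3). *Kcnk5* exceeded *Kcnk2* in each replicate, by ratios of 7.83, 7.43 and 6.48. The closest relative of *Kcnk2*, *Kcnk10* (TREK-2), had a mean of 0.21 FPKM, and *Kcnk13* (THIK-1) had 0.18 FPKM. *Kcnk7* was lower, with a mean of 0.057 FPKM. *Kcnk3* (TASK-1) was listed at 0.01 FPKM in all 3 replicates, below the value of 3 reads, and *Kcnk6* was at 0.01 FPKM in replicate 3 alone. The remaining 7 of 14 K2P members, among them *Kcnk1* (TWIK-1) and *Kcnk9* (TASK-3), were listed at 0. Together the K2P genes summed to 38.26, 39.54 and 35.26 FPKM, or 50.4% ± 3.86 (SD, n = 3) of the FPKM of the family, most of it from *Kcnk5*.

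Among the pore-forming Kv1 to Kv4 subunits, 3 of 18 records were expressed. *Kcna6*, which encodes the delayed rectifier subunit Kv1.6, led this class (chr6:126658347-126690680, minus strand). Its level came to 12.01, 13.13 and 9.31 FPKM in the same order, with a mean of 11.5 ± 1.96 FPKM (SD, n = 3). *Kcna6* forms a cluster on chromosome 6 with *Kcna1* and *Kcna5*, all on the minus strand. *Kcna1*, which encodes Kv1.1 and lies 62528 bp from it, had 0.16, 0.12 and 0.15 FPKM. *Kcna5*, which encodes Kv1.5, was at 0 in all replicates. The level of *Kcna6* was therefore 75.1, 109 and 62.1 times that of its neighbour *Kcna1* in the same libraries. On chromosome 3, where *Kcna3*, *Kcna2* and *Kcna10* lie side by side, *Kcna2* had a mean of 0.05 FPKM and the other two were at 0.

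The second Kv member was *Kcnd1* (chrX:7399415-7415406, plus strand), which encodes Kv4.1, a subunit of rapidly inactivating A-type channels. It had 1.93, 2.11 and 1.94 FPKM in replicates 1, 3 and 4, a mean of 1.99 ± 0.10 FPKM (SD, n = 3). Its paralog *Kcnd2* was at 0 in all replicates, and *Kcnd3* was at 0.01 FPKM in replicate 3 alone. The genes *Kcnc1* and *Kcnc2*, which encode subunits of fast Kv3 channels, were at 0, and *Kcnc4* was at 0.01 FPKM in replicate 3 alone. The whole class summed to a mean of 15.2 ± 2.36 FPKM (SD, n = 3), or 20.2% of the family.

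No member of the other voltage-gated classes was expressed. Silent modifier subunits, which need a partner of another Kv family to form a channel, had 6 of 10 members at 0, and the highest was *Kcnf1* (Kv5.1) with 0.18, 0.29 and 0.15 FPKM. Of the 5 KCNQ genes, some of whose channels give the slow M-type current, *Kcnq5* had a mean of 0.17 FPKM, whereas *Kcnq3* was at 0. *Kcnh2*, which encodes the ERG channel of cardiac repolarization, came nearest to the threshold with 0.72, 0.96 and 0.64 FPKM. It was the ninth member in order of level, with a mean of 0.77 ± 0.17 FPKM (SD, n = 3), and its highest value lay below the lowest of every expressed member. In the same class *Kcnh4* had a mean of 0.04 FPKM and *Kcnh1* (EAG1) of 0.013 FPKM, and 5 of 9 records were at 0.

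Inward rectifiers gave little signal as well. None of the 15 members reached 1 FPKM, and their summed level was 0.38, 0.32 and 0.33 FPKM in replicates 1, 3 and 4. *Kcnj13* (Kir7.1), a channel of the retinal pigment epithelium, was the highest at 0.16, 0.13 and 0.17 FPKM, from an estimated 7.74 reads or more per replicate. *Kcnj12* (Kir2.2) followed with a mean of 0.097 FPKM. *Kcnj2* (Kir2.1), which holds the resting potential of muscle cells, had a mean of 0.023 FPKM, *Kcnj14* of 0.033 FPKM and *Kcnj4* of 0.027 FPKM. *Kcnj10* (Kir4.1) was at 0.01 FPKM in replicate 1 and at 0 in replicates 3 and 4. Both pore genes of ATP-sensitive channels, *Kcnj8* and *Kcnj11*, were at 0 in every replicate. Their regulatory partners were as low, with *Abcc9* at 0 and *Abcc8* at 0.01 FPKM in replicate 1 alone.

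Of the calcium- and sodium-activated channels, 1 of 8 was expressed. This was *Kcnn4* (chr7:25155282-25170228, plus strand), which encodes KCa3.1, a channel of intermediate conductance gated by calmodulin. Its values were 2.15, 2.46 and 1.71 FPKM in replicates 1, 3 and 4, with a mean of 2.11 ± 0.38 FPKM (SD, n = 3). The small-conductance relative *Kcnn1* had 0.28, 0.33 and 0.21 FPKM, and *Kcnn4* exceeded it by ratios of 7.68, 7.46 and 8.14. *Kcnn3* had a mean of 0.023 FPKM, and *Kcnu1*, which encodes the Slo3 channel of sperm, of 0.087 FPKM. The calmodulin genes *Calm2* and *Calm3* had means of 268 and 272 FPKM. *Kcnma1*, the single pore gene of the BK channel, was at 0 in all replicates, as were *Kcnt1* and *Kcnt2*. On *Kcnma1*, 3 reads would give 0.012, 0.013 and 0.0095 FPKM in replicates 1, 3 and 4, and a listed 0, which means under 0.005 FPKM, lies below all 3 of these values.

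**Figure D2:**
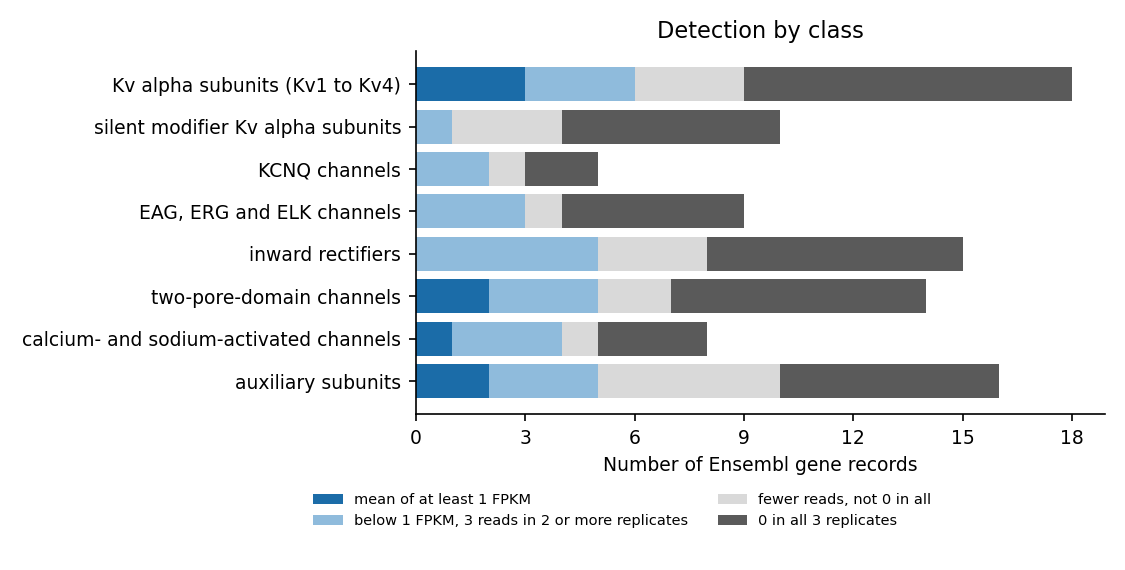
Number of Ensembl gene records in each class of potassium channel genes (horizontal bars), divided by level: a mean of at least 1 FPKM, lower but with at least 3 estimated reads in 2 or more replicates, fewer reads, and 0 in all 3 replicates. The Kv1 to Kv4 class holds 3 of the 8 expressed members, and the inward rectifiers, KCNQ, EAG-related and silent modifier classes hold none.

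Auxiliary subunits held 23.8% ± 3.22 (SD, n = 3) of the FPKM of the family, mostly through *Kcnab2*. This gene (chr4:151764851-151851980, minus strand) encodes Kv-beta2, a cytoplasmic subunit that binds Kv1 channels. It had 15.79, 19.18 and 10.85 FPKM in replicates 1, 3 and 4, a mean of 15.3 ± 4.19 FPKM (SD, n = 3). Exons of another gene on the same strand covered 2.24% of its exon bases. *Kcnab3* had a mean of 0.25 FPKM, and *Kcnab1* was at 0.01 FPKM in replicate 1 alone. The 2 highest genes after *Kcnk5* thus encode a Kv1 pore subunit and a subunit that binds Kv1 channels, and *Kcnab2* stood above *Kcna6* by 1.31, 1.46 and 1.17 times in the 3 replicates, although their ranges overlapped.

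The BK channel genes showed the opposite arrangement. *Kcnmb4* (chr10:115854917-115910934, minus strand), which encodes the beta4 subunit of BK channels, had 2.94, 2.79 and 1.89 FPKM in replicates 1, 3 and 4, a mean of 2.54 ± 0.57 FPKM (SD, n = 3). It was measured in all 3 replicates with at least 415 estimated reads, while its pore-forming partner *Kcnma1* was listed at 0. The other beta subunit genes were low as well, with *Kcnmb1* at 0.01 FPKM in replicate 3 alone and *Kcnmb2* and *Kcnmb3* at 0. The BK gamma subunit genes *Lrrc26*, *Lrrc38*, *Lrrc52* and *Lrrc55* were all listed at 0. Likewise *Kcnd1* had few transcripts of its usual partners beside it. Of the KChIP genes, *Kcnip2* had a mean of 0.03 FPKM and *Kcnip3* of 0.02 FPKM, and *Kcnip1* and *Kcnip4* were at 0, while *Dpp6* was at 0 and *Dpp10* had a mean of 0.033 FPKM. *Amigo1*, which encodes a partner of Kv2 channels, had a mean of 1.797 FPKM. Of the 5 genes of the MinK family, *Kcne2* and *Kcne3* were at 0 and *Kcne1*, *Kcne1l* and *Kcne4* each had 0.01 FPKM in a single replicate.

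**Figure D3:**
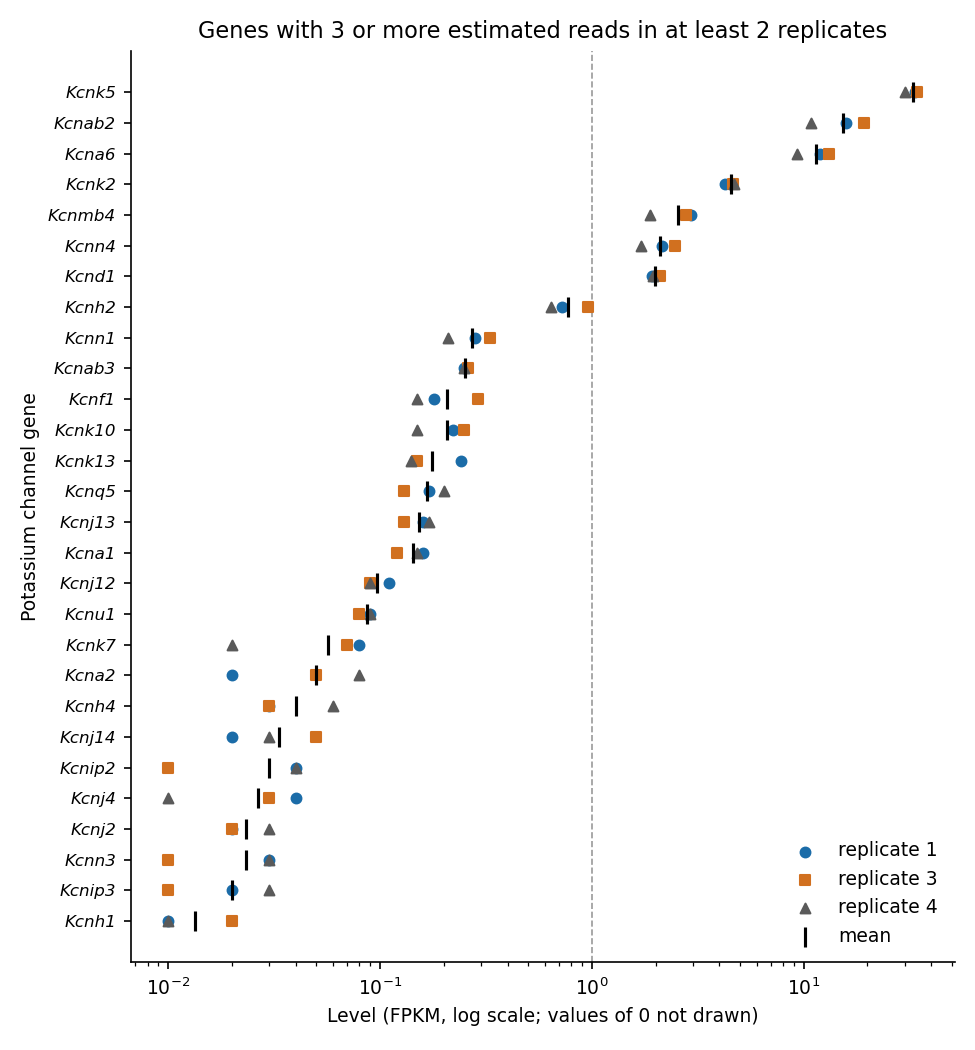
Level of each potassium channel gene with at least 3 estimated reads in 2 or more replicates (horizontal axis, FPKM on a log scale), with 1 symbol per replicate, a vertical bar at the mean and a dashed line at 1 FPKM. *Kcnk5* stands alone at the top, and the 7 genes drawn right of the line are followed by *Kcnh2* just left of it. Genes not reported here are left out.

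The first 7 expressed members in order of level were *Kcnk5*, *Kcnab2*, *Kcna6*, *Kcnk2*, *Kcnmb4*, *Kcnn4* and *Kcnd1*. The first 3 held 79.0% ± 0.73 (SD, n = 3) of the summed FPKM of the family, which was 77.51, 83.7 and 64.43 FPKM in replicates 1, 3 and 4, or 0.020% of all FPKM. Neighbours in this order did not overlap between *Kcnk5* and *Kcnab2*, between *Kcna6* and *Kcnk2*, and between *Kcnk2* and *Kcnmb4*. The ranges of *Kcnab2* and *Kcna6* overlapped, as did those of *Kcnmb4* and *Kcnn4*, although the order held in 3 of 3 replicates for both pairs. *Kcnn4* and *Kcnd1* were not separated, since *Kcnn4* was higher in only 2 of 3 replicates. With 3 replicates an exact paired permutation test cannot fall below p = 0.25, so none was made.

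Members differed in how much they varied between replicates. The coefficient of variation was lowest for *Kcnk2* (4.87%), *Kcnd1* (5.07%) and *Kcnk5* (6.63%), and reached 27.4% for *Kcnab2*, the highest, and 22.4% for *Kcnmb4*. For *Kcnab2*, counting error alone came to about 1.58% in the lowest replicate, with reads estimated from the joined length of its exons. Replicate 4 was the lowest for 6 of the 8 expressed members, and replicate 3 the highest for 5 of them. Across 10006 genes of at least 1 FPKM in each replicate, the log2 ratio of replicates 3 and 4 followed the GC content of the transcript (Spearman's rho 0.78 across genes, a description without a test). Over the 8 expressed members alone, rho was 0.476. Genes with a GC content within 1 percentage point of that of *Kcnn4* (60.4%) had a median log2 ratio of 0.525, and *Kcnn4* itself had 0.525. *Kcnk5*, with a GC content of 55.1%, had 0.19 against 0.28. *Kcnab2* was further from its like, at 0.82 against 0.42, which is 1.53 SD of those genes. For *Kcna6* the values were 0.50 against 0.18, or 1.26 SD. *Kcnmb4* departed most, with 0.56 against a median of -0.38 among 892 genes of like GC content, or 2.81 SD. The part of GC content in these differences was not tested.

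**Figure D4:**
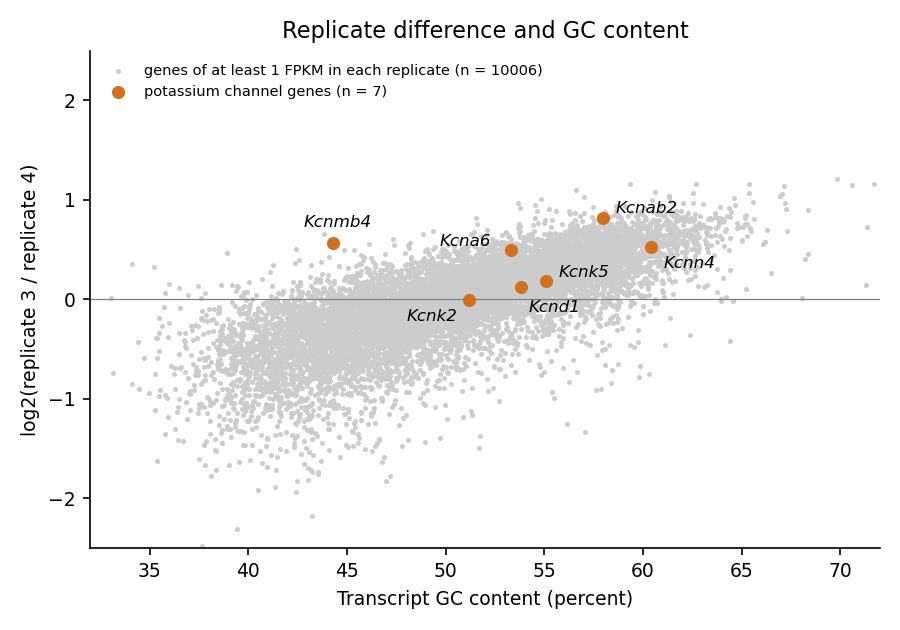
Log2 ratio of replicate 3 to replicate 4 (vertical axis) against the GC content of the longest coding transcript in percent (horizontal axis) for 10006 genes (grey) and 7 expressed potassium channel genes (orange), with 2 grey points outside the axes. The grey points rise with GC content, and *Kcnmb4*, at 44.3% GC, lies above the points around it.

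Among other genes of potassium transport, *Fxyd5*, *Atp1b3*, *Slc12a4*, *Slc12a7* and *Slc24a5* had higher means than *Kcnk5* (32.7 FPKM). The others named here had lower means. Of 17 genes of the sodium-potassium pump and related pumps, 5 had a mean of at least 10 FPKM, a share near that of all genes (23.6%). Among them, the beta subunit *Atp1b3* had a mean of 58.2 ± 4.12 FPKM (SD, n = 3), *Atp1b2* of 10.6 FPKM, and the regulatory subunits *Fxyd5* and *Fxyd1* of 132 and 16.3 FPKM. Potassium-chloride cotransporters were represented by *Slc12a4* with a mean of 59.1 FPKM and *Slc12a7* with 36.2 FPKM. The melanosomal potassium-dependent exchanger *Slc24a5* had a mean of 42.7 ± 1.22 FPKM (SD, n = 3), while the other 4 members of its family had at most 0.45 FPKM. *Tmem175*, a potassium channel of lysosomes outside the symbol rule, had 9.5, 9.81 and 10.04 FPKM. *Hcn2*, which encodes a cation channel opened by hyperpolarization that passes both sodium and potassium, had 9.37, 10.45 and 4.99 FPKM in replicates 1, 3 and 4. Its relative *Hcn3* had a mean of 0.16 FPKM, and *Hcn4* was at 0.

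**Figure D5:**
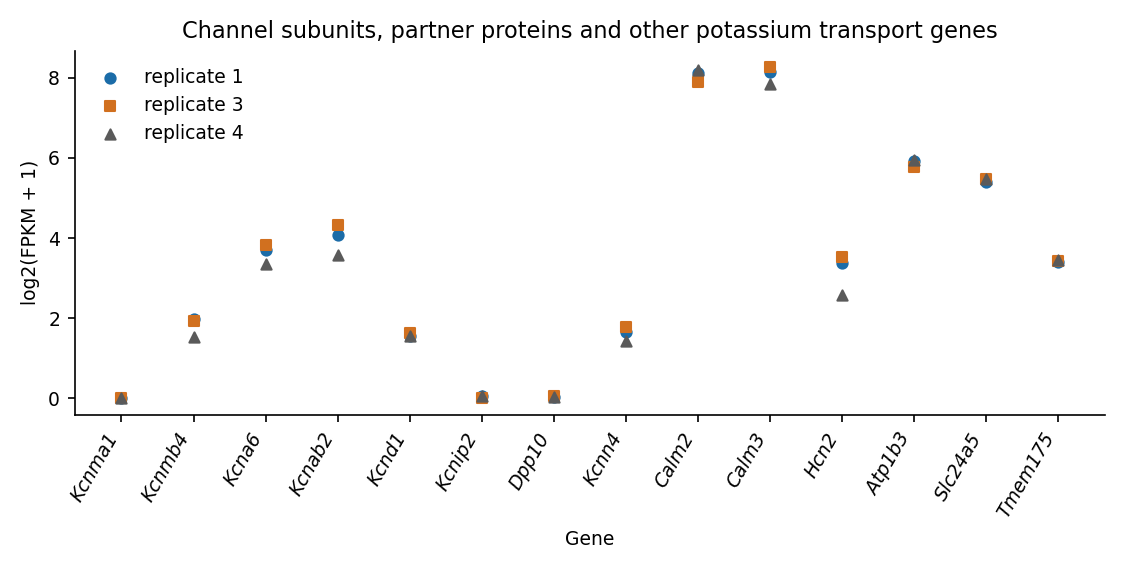
Level as log2(FPKM + 1) (vertical axis) in each of 3 replicates for channel subunits, their partner proteins and other genes of potassium transport (horizontal axis). *Kcnma1* lies at 0 beside *Kcnmb4*, and *Calm2* and *Calm3* lie above all potassium channel genes shown.

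The identity of the cells was checked against marker genes. Of 10 melanocyte markers 9 had a mean of at least 1 FPKM, with *Tyrp1* at 3144 FPKM, and *Kit* was the exception at 0.68 FPKM. Many potassium channels are neuronal genes. Of the 6 neuronal markers in the files, *Tubb3* (216 FPKM) alone reached 1 FPKM, *Snap25* and *Gad1* were at 0 and *Rbfox3* had 0.01 FPKM in a single replicate, and the sum of the list was 180.6 to 249.6 FPKM through *Tubb3*. Of 6 muscle markers, *Tnnt2* (29.9 FPKM) alone reached 1 FPKM and the others had at most 0.093 FPKM. All 3 Schwann cell markers reached 1 FPKM, with *Mbp* at 1.76 FPKM and a sum of 85.4 to 137 FPKM. Of the 4 fibroblast markers 1 reached 1 FPKM, as did 1 of the 3 immune markers, and none exceeded 1.54 FPKM. None of the 4 keratinocyte and 2 endothelial markers reached 1 FPKM. The part of other cell types in the levels of the channel genes was not tested.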

How the data were processed

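RNA-seq was performed by the authors with a stranded mRNA kit in 3 lanes per replicate. They trimmed 10 bases from each read, aligned to mm9 with STAR 2.3.0e, removed rRNA reads and counted on Ensembl release 67 with HTSeq 0.5.3p3. The deposited values are FPKM per gene scaled between libraries by the TMM method and given to 2 decimals. How counts became FPKM is not given in the sources used here, and no counts were analysed. A listed 0 therefore means under 0.005 FPKM.

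Symbols, positions and exon lengths were read from GENCODE M1 (mm9, Ensembl 65), which holds 22324 of the 22698 genes. Low values of short genes with 1 transcript (40, 34 and 50 genes) fell on whole reads at scaled library sizes of 53700000, 46900000 and 66100000 reads in replicates 1, 3 and 4, within 0.046 reads on average. Tested on simulated data with 40 genes, the method gave 45100000 reads for a library of 45000000 and 59900000 for one of 60000000. Estimated reads assume the joined exon length, which is not known to be the authors' choice for genes with several transcripts. With one condition, means and SDs over replicates were given and no test was made. The members, gene lists and thresholds were chosen with earlier results of these data known. The rule was to name every member with a mean of at least 1 FPKM with its values, lower members over 3 reads in 2 replicates by their mean, and other genes of a list from 10 FPKM or as textbook examples; a few of these genes are counted in the totals but not reported here. Protein sequences were not used here. Alternatives were each replicate left out, other thresholds, symbols, scalings and pseudocounts, and each symbol counted once, which was chosen after seeing the data. Python 3.11.15, numpy 2.4.6, pandas 2.3.3 and matplotlib 3.10.9 were used.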

Additional observations from a re-analysis of the deposited data

How the results depend on the processing

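The counts of potassium channel genes moved by less than 1.5 times under every alternative tried. The number listed at 0 was 45, between 47 and 52 with 1 replicate left out, 61 when fewer than 3 estimated reads in every replicate were taken as silent, and 43 with each symbol counted once. The number of expressed members was 8 with any replicate left out, 9 at 0.5 FPKM, 6 at 2 FPKM and 9 once the FPKM of every replicate were set to add up to 1000000. Rescaling changes the unit, so it moved the sum of every class. The sums became 99.8 for K2P channels, 40.3 for Kv1 to Kv4 subunits, 47.7 for auxiliary subunits, 6.59 for calcium- and sodium-activated channels, 2.20 for EAG, ERG and ELK channels, 0.91 for inward rectifiers, 0.67 for KCNQ channels and 0.57 for silent modifier subunits. With only members over 3 reads in all replicates, the share of inward rectifiers fell from 0.46% to 0.37%. For single named genes, 8 of 64 alternative values moved, all 8 through the change of unit in rescaling. A mean counted as moved if it shifted by more than the SD of the 3 replicates. A log2 ratio of replicates counted as moved if it shifted by more than the SD over genes. Leaving out 1 of 3 replicates or taking the median cannot shift a mean by more than that SD. These alternatives could therefore not move and give no measure of stability. No paired analysis was possible because the samples form a single group, and the ratios within replicates compare genes, not groups. Rounding limits the lowest levels. For the 45 records listed at 0, the reads compatible with 0 in all 3 replicates came to under 0.59 for *Kcng2* and to at most 13.6 for any of the others.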

Other observations

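Voltage-gated channels for other cations were measured too. Of 14 voltage-gated sodium channel genes, 5 were listed at 0, near the 31.4% of all genes, and 3 had a mean of at least 1 FPKM, which 45.1% of all genes reached. Among these, the auxiliary subunit gene *Scn3b* had 2.71, 2.39 and 2.86 FPKM in replicates 1, 3 and 4, and *Scn8a*, which encodes the pore-forming subunit Nav1.6, had a mean of 1.27 ± 0.24 FPKM (SD, n = 3). None of the 10 genes for pore-forming subunits of voltage-gated calcium channels reached 1 FPKM, and 4 were at 0. The highest of them was *Cacna1a* with 0.71, 0.64 and 0.71 FPKM.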
